A study of Arabidopsis thaliana with 18 samples.

Results

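COR15A, COR47, LEA4-5 and AT3G02480 are Arabidopsis genes of the COR (cold-regulated) and LEA (late embryogenesis abundant) families. These 4 genes, of 13350 with a probe set of their own in the annotation used here, were chosen because their signal was lower with time in plants without induction and was set against the level in induced plants. Their levels in the groups below therefore chose them. They are given as a description, with no test. Each gene had 1 probe set, and all 4 were kept, since no filter on signal was applied.

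Each sample was RNA from whole Col-0 seedlings. All carried a T-DNA with pMDC7DUO1, the coding sequence of DUO1 in pMDC7, a vector from which oestradiol switches on the inserted gene. DUO1 normally acts in developing sperm cells, where it switches on their genes as a MYB-type regulator. Plants selected on hygromycin grew for 12 days in constant light, and were collected after 6 h, 12 h or 24 h, either induced or left without induction. This gave 6 groups of 3 ATH1 arrays, 18 in all. Every group carried the construct, so induction of DUO1 and the inducing treatment itself cannot be told apart.

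COR and LEA genes are switched on by cold, drought, salt and the hormone abscisic acid, and many LEA genes also during seed maturation. In the cold, CBF transcription factors bind the promoters of COR genes, and under water deficit abscisic acid signalling acts on many of the same promoters. Their products are small hydrophilic proteins that protect membranes and enzymes when cells lose water. In unstressed seedlings many of these genes are expressed weakly, and a disturbance such as handling can raise them for some hours.

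The values are MAS5 signals, brightnesses on a linear scale. Their mean, computed here with 2% of probe sets trimmed at each end, was 100.01 on each array. The median signal of an array was 34.3 to 39.5. The background level of an array, the highest signal among 27 controls whose transcripts were not added to the samples, was 3.30 to 10.1. Signals are mean ± SD over 3 arrays, and differences are on the log2 scale with the standard error of the limma fit over all 18 arrays. The number of arrays limits the precision. Of genes known to be active in green tissue, LHCB4.1, LHCB4.2 and RCA lay above background in every group, with a summed signal of 9968 to 17557, and the root genes PYK10, EXPA7 and EXPA18 summed to 3171 to 4364, nearly all of it PYK10. The root hair expansin genes EXPA7 and EXPA18 were lower in induced plants at each time. At 24 h EXPA7 stood at 10.5 ± 0.55 against 42.7 ± 7.80 and EXPA18 at 19.4 ± 4.12 against 58.3 ± 7.24 (limma adjusted p = 0.000507 and 3.18e-05). At 6 h and 12 h their log2 differences were -1.52 and -1.51 for EXPA7 (adjusted p = 0.0316 and 0.00983) and -0.87 and -1.18 for EXPA18 (adjusted p = 0.0477 and 0.00133), while PYK10 did not pass at any time. Their part in the differences between induced and other plants was not tested. The green tissue sum was also lower with time, at 14318 to 17442 in plants without induction at 6 h and 10068 to 11391 at 24 h, against 12072 to 17557 and 9968 to 14284 with induction. Only LHCB4.2 passed between 6 h and 24 h, with log2 differences of -0.90 without and -0.60 with induction (limma adjusted p = 0.000702 and 0.0178). RCA and LHCB4.1 did not pass with or without induction. The part of the green tissue sum in the values of the 4 genes was not tested. None of the 14 seed storage genes looked for had a probe set of its own here. No probe set was named for DUO1, so the labels could not be checked on the induced gene itself. The 7 measured pollen genes, among them the sperm cell histone gene MGH3, summed to 86.2 to 129 without induction and 290 to 859 with it, although within a group 3 to 5 of the 7 never rose above background. Nearly all of the sum was MGH3 and ACT11. Group means of MGH3 were 1.54 to 2.83 without induction and 178 to 551 with it, and those of ACT11 were 81.7 to 104 and 129 to 180. ANX1, ANX2, ACT12, AT5G45880 and VEX1 did not pass between induced and other plants at any time. Since the samples were whole seedlings, fewer cells of a type and less RNA per cell cannot be told apart.

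Replicate 2 of the 6 h plants without induction stood apart for some of these genes. On it LEA4-5 was 4.90-fold and AT3G02480 5.43-fold above the mean of the other 2 arrays of its group. COR47 was 1.68-fold and COR15A 1.02-fold above that mean. Of the 34 other measured genes of the cold and LEA lists, 12 were at least 2-fold higher on it than on the other 2, against 2 to 8 of 34 on the other arrays and 8.02% of all probe sets on the same array. The mean log2 signal of the 18 hybridisation control probe sets, which are spiked into every sample, was also high in the 6 h plants without induction, at 8.49 to 8.80. It was 7.91 to 8.27 in the 12 h and 7.72 to 8.20 in the 24 h plants without induction. Among induced plants it was 7.94 to 8.94 at 6 h, 8.02 to 8.11 at 12 h and 7.93 to 8.90 at 24 h. The ratio of 3' to 5' signal of GAPDH, a sign of RNA quality, was 1.35 to 1.51 on the induced 12 h arrays and 1.18 to 1.33 on the 12 h arrays without induction, with no overlap. It overlapped between induced and other plants at 6 h and 24 h, and its part in the 12 h values was not tested. Differences are also given without that array, or with these controls as a covariate, where the value moved.

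COR15A encodes a LEA protein of the chloroplast stroma that stabilises membranes during freezing. In plants without induction its signal was 4164, 4501 and 4715 at 6 h, 1202, 1226 and 535 at 12 h, and 695, 466 and 465 at 24 h. In induced plants it was 2789, 4145 and 3834 at 6 h, 3705, 1244 and 1584 at 12 h, and 2183, 2142 and 1714 at 24 h. All arrays without induction at 12 h and 24 h lay below every induced array of the same time, whereas at 6 h the 3 induced arrays lay below the 3 others.

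In plants without induction COR15A stood at 4460 ± 278 at 6 h and 542 ± 133 at 24 h, an 8.37-fold lower level (log2 difference -3.07 ± 0.32). In induced plants the level at 24 h was 1.77-fold below that at 6 h (log2 difference -0.82 ± 0.32). As a share of the 6 h level of plants without induction, the 24 h level was 45.1% with induction and 12.2% without it. Induced plants stood at 3589 ± 710 at 6 h, already below that reference. The induced level at 24 h, 2013 ± 259, was 3.76-fold that without induction. At 12 h the log2 difference was 1.07 ± 0.32, with an induced SD of 1334 and replicate 1 well above the other 2 arrays. It was 0.60 without that replicate and 0.68 without replicate 3 of the 12 h plants without induction. The order of the 6 groups, from high to low, was 6 h without induction, 6 h induced, 12 h induced, 24 h induced, 12 h without induction and 24 h without induction. Arrays of neighbours in this order did not overlap between the first pair, nor between 24 h induced and 12 h without induction.

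**Figure D1:**
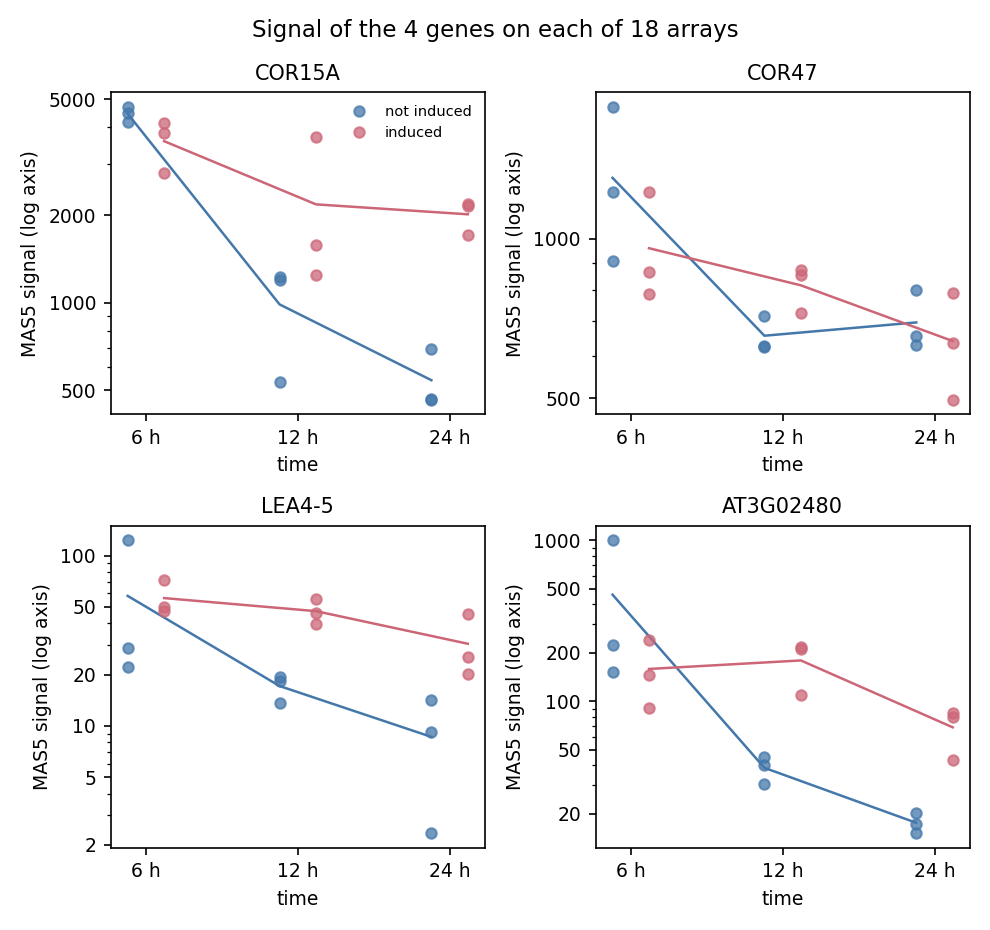
MAS5 signal (log axis) of COR15A, COR47, LEA4-5 and AT3G02480 on each of the 18 arrays, by time (equally spaced) and induction; points are arrays and lines join the means of 3 arrays. For COR15A, LEA4-5 and AT3G02480 the induced arrays lie above the others at 12 h and 24 h, while for COR47 the groups overlap at 24 h.

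COR47 is a dehydrin, a LEA protein of the cytosol that binds to membranes and is induced by cold and drying. Without induction its signal was 909, 1773 and 1224 at 6 h, 629, 624 and 716 at 12 h, and 800, 657 and 630 at 24 h. With induction it was 1224, 788 and 866 at 6 h, 726, 872 and 853 at 12 h, and 497, 790 and 636 at 24 h. The highest value was the 6 h array that stood apart, and the induced and other arrays overlapped at 6 h and 24 h but not at 12 h.

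The level of COR47 without induction was 1302 ± 437 at 6 h and 695 ± 91.3 at 24 h, a 1.81-fold difference (log2 difference -0.86 ± 0.20). In induced plants it was 959 ± 232 and 641 ± 147, a 1.50-fold difference (log2 difference -0.58 ± 0.20). At 24 h the induced and other plants differed by a log2 difference of -0.13 ± 0.20, so COR47 did not share the higher induced level of the other 3 genes. With the hybridisation controls as a covariate, its log2 difference between 24 h and 6 h without induction was -0.45. Without the 6 h array that stood apart that difference was -0.61. In the order of its 6 group means, 6 h without induction came first and 24 h induced last, and the arrays of every pair of neighbours overlapped.

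LEA4-5 encodes a small LEA protein that accumulates under water deficit. Its signal without induction was 22.2, 123 and 28.6 at 6 h, 18.5, 19.3 and 13.7 at 12 h, and 9.25, 2.34 and 14.3 at 24 h, of which 2.34 was at background. With induction it was 47.4, 50.0 and 71.6 at 6 h, 46.2, 55.7 and 39.8 at 12 h, and 20.3, 25.3 and 45.5 at 24 h. At 6 h both groups overlapped only through the array of 123 that stood apart, and at 12 h and 24 h each induced array was brighter than each array without induction. The log2 difference between induced and other plants at 6 h was 0.37 ± 0.56, or 1.14 without that array.

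Without induction LEA4-5 stood at 58.0 ± 56.6 at 6 h, 17.1 ± 3.04 at 12 h and 8.62 ± 5.98 at 24 h, the last 6.32-fold below the first (log2 difference -2.66 ± 0.56). That difference was -1.90 without replicate 2 of the 6 h plants and also -1.90 without replicate 2 of the 24 h plants. In induced plants the level was 56.3 ± 13.3, 47.2 ± 7.99 and 30.4 ± 13.3, with a log2 difference of -0.95 ± 0.56 from 6 h to 24 h. At 24 h the induced level was 4.23-fold that without induction (log2 difference 2.08 ± 0.56), and the difference was 1.32 without replicate 2 of the 24 h plants without induction. In the order of the means, a gap between the arrays of neighbours was found between 24 h induced and 12 h without induction.

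AT3G02480, a LEA gene known by its locus name, was bright on some arrays and dim on others. Its signal without induction was 151, 1000.4 and 224 at 6 h, 40.3, 30.4 and 44.9 at 12 h, and 20.3, 17.2 and 15.1 at 24 h. With induction it was 145, 90.6 and 240.5 at 6 h, 210, 218 and 109 at 12 h, and 79.3, 43.2 and 84.0 at 24 h. The 3 groups without induction followed each other downward with no overlap, and the induced arrays at 12 h lay in the range of those at 6 h.

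The level of AT3G02480 without induction was 459 ± 471 at 6 h and 17.6 ± 2.6 at 24 h, an 18.6-fold difference (log2 difference -4.21 ± 0.48). Without the 6 h array that stood apart the difference was -3.40. In induced plants it was 159 ± 75.9 at 6 h, 179 ± 60.8 at 12 h and 68.8 ± 22.3 at 24 h, a log2 difference of -1.15 ± 0.48 from first to last. Induced plants were 4.49-fold above the others at 12 h and 3.78-fold at 24 h (log2 differences 2.17 ± 0.48 and 1.92 ± 0.48). At 6 h they were lower, by -1.14 ± 0.48, or -0.33 without that array. The arrays of neighbours in the order of means did not overlap between 6 h induced and 24 h induced, nor between 12 h and 24 h without induction.

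Side by side, the 4 genes shared a lower level without induction at 12 h and 24 h than at 6 h. In both cases 4 of 4 had groups that did not overlap, as did 9.48% and 11.9% of all probe sets in that direction. From 6 h to 24 h with induction 3 of 4 did so, COR47 being the exception, against 10.7% of all. Induced plants lay above the others with no overlap for 4 of 4 at 12 h and 3 of 4 at 24 h, against 14.1% and 14.5% of all. These counts follow from how the genes were chosen. At 12 h the nearest arrays were close for COR15A (1244 induced against 1226) and COR47 (726 against 716). The median signals of those arrays were also higher with induction, at 38.5 to 39.2 against 36.8 to 37.5. Their part in these narrow gaps was not tested. The median log2 difference of the 4 genes was -2.86 from 6 h to 24 h without induction, -0.89 with induction, and 1.92 between induced and other plants at 24 h. Over all probe sets the medians were 0.05, 0.02 and 0.02. The comparisons without induction over time and with induction at each time share arrays, so a low array without induction enters both.

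**Figure D2:**
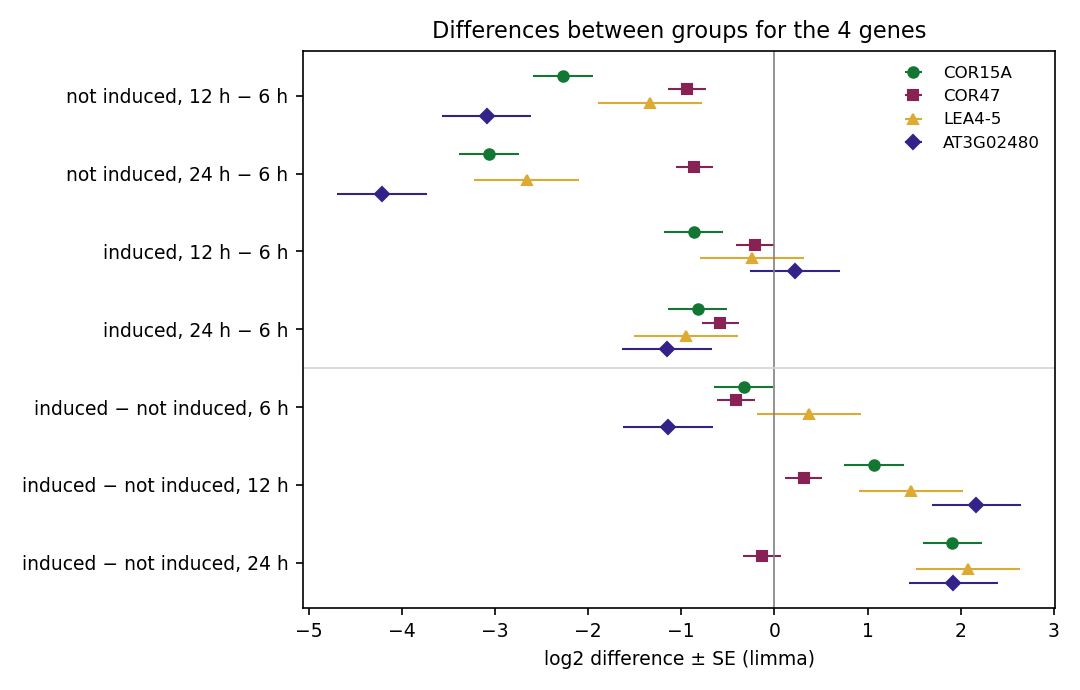
Log2 differences (x axis, points, with bars of 1 standard error from limma) of the 4 genes between times without and with induction (upper 4 lines) and between induced and other plants at each time (lower 3 lines). COR47 stays nearest to 0 in the comparisons of induced with other plants at 12 h and 24 h (0.31 and -0.13).

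The difference between both time courses, the induced 24 h minus 6 h change less the same change without induction, was 2.24 ± 0.45 for COR15A, 3.06 ± 0.68 for AT3G02480, 1.71 ± 0.79 for LEA4-5 and 0.28 ± 0.28 for COR47 on the log2 scale. For AT3G02480 it was 2.25 without replicate 2 of the 6 h plants without induction. For LEA4-5 it was 0.94 without that array, and likewise without replicate 2 of the 24 h plants without induction. For COR47 it was 0.03 without the 6 h array that stood apart and -0.23 with the hybridisation controls as a covariate. For COR15A it lay between 2.07 and 2.56 over the 27 alternatives run.

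Over the 18 arrays, the log2 signals of AT3G02480 and LEA4-5 had a Pearson correlation of 0.84, and those of AT3G02480 and COR15A of 0.81. LEA4-5 and COR15A had 0.74. The correlation of COR47 was 0.72 with AT3G02480, and 0.54 each with COR15A and with LEA4-5. The arrays share the 6 groups, and without the array that stood apart the correlation of COR47 with LEA4-5 was 0.38 and with AT3G02480 0.56. Among 7306 brighter probe sets with 1 gene, ALDH7B4, an aldehyde dehydrogenase gene induced by drying and salt, had the pattern most like both LEA4-5 and AT3G02480 (r = 0.92 and 0.91). AT2G41330, AT3G02480, AT1G78070 and AT2G32150 came next for LEA4-5 (r of 0.84 to 0.82), and LTI30, AT3G05340, AT1G13990 and AT4G28290 for AT3G02480 (0.87 to 0.86). LTI30, a dehydrin gene, was most like COR47 (0.88), followed by AT1G62510, AT3G27090, Hop3 and AT1G15010 (0.84 to 0.83). Without the array that stood apart these 5 correlations with COR47 were 0.73 to 0.83. Nearest to COR15A were AT1G16850, the lectin gene EULS3, FMA, which encodes a guard cell transcription factor, AT1G68570 and the sugar transporter gene SWEET4 (0.91 to 0.90).

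Other genes of the same pathways were taken from 4 lists of cold, LEA and dehydrin, abscisic acid and drought, and abscisic acid signalling genes. Of 141 distinct entries 38 had a probe set of their own, the 4 genes included, and the 34 others were tested with limma over all 22746 probe sets. They came from the LEA and dehydrin list (31) and the cold list (5), 2 genes being in both. Neither abscisic acid list had a measured gene in the annotation used here. Genes given only by a locus name are named as members of a list, with no role stated.

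The first comparison asked how these genes moved with time without induction. LTI30, a dehydrin induced by low temperature, fell from 1226 ± 619 at 6 h to 316 ± 30.5 at 24 h (log2 difference -1.84 ± 0.21, limma adjusted p = 1.21e-05). It was 752, 1927 and 999.8 at 6 h and 351, 297 and 301 at 24 h, with no overlap, and the difference was -1.46 without the array of 1927, with its call kept. STZ, a zinc finger repressor induced by cold and salt, fell from 80.7 ± 5.80 to 37.1 ± 0.97 (log2 difference -1.12 ± 0.19, adjusted p = 0.00066). AT2G23120 of the LEA list fell from 939 ± 167 to 563 ± 125 (adjusted p = 0.000836). AT3G17520 and AT3G15670 fell as well (adjusted p = 0.0386 and 0.0499), but AT3G17520 lost that call in 7 of 27 alternatives, among them the fit without the 6 h array that stood apart (log2 difference -0.99, adjusted p = 0.219), and AT3G15670 in 16 of 26.

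In all, 5 of the 34 fell and 2 rose between 6 h and 24 h without induction, against 4.88% and 4.98% of all probe sets. Those that rose were COR27, a cold-regulated gene tied to the circadian clock, from 22.7 ± 9.40 to 50.5 ± 7.13, and AT4G33980 of the cold list, from 17.3 ± 5.83 to 36.3 ± 7.56 (adjusted p = 0.00417 and 0.0148). The call of AT4G33980 was lost in 5 of 27 alternatives, among them the fits without replicate 3 of the 6 h plants or replicate 1 or 3 of the 24 h plants (adjusted p = 0.0794, 0.0727 and 0.0545). The median log2 difference of the 34 was -0.64, against 0.05 over all probe sets. The count of calls was 5, with 3 falls, without the 6 h array that stood apart, and 4 without replicate 3 of the same group. By 12 h, 5 of 34 had fallen, LTI30, COR15B, STZ, AT2G23120 and AT3G17520, against 1.47% of all probe sets, and none passed upward with limma, against 1.44% of all, while 9 of 34 had an unadjusted p under 0.05 in either direction, against 17.3% of all. AT3G17520 lost its call in 5 of 27 alternatives, among them the fit without the 6 h array that stood apart (log2 difference -1.44, adjusted p = 0.103). STZ and AT2G23120 lost their 12 h calls with the hybridisation controls as a covariate (limma adjusted p = 0.0663 and 0.0542).

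COR15B, which lies next to COR15A on chromosome 2 and encodes a closely related chloroplast protein, had the arrays 647, 842 and 716 at 6 h, 428, 330 and 114 at 12 h, and 581, 328 and 317 at 24 h without induction. It was below its 6 h level at 12 h by a log2 difference of -1.53 ± 0.32 (adjusted p = 0.0115). That difference was -0.96 without replicate 3 of the 12 h plants, with its call kept, and the call was lost without an intensity trend (adjusted p = 0.0724) and with only the arrays compared (0.0855). At 24 h the difference was -0.90 ± 0.32, which did not pass (adjusted p = 0.082). The 3 arrays of each later group lay below all 3 of 6 h. For COR15A and COR15B, close copies, signal shared between their probe sets was not tested.

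Over the same times with induction, LTI30 fell from 6 h to 24 h, from 898 ± 12.8 to 381 ± 83.2 (log2 difference -1.26 ± 0.21, adjusted p = 0.000651), and AT1G54890 of the LEA list fell at least 1.74-fold, from 12.2 ± 5.68 to background (adjusted p = 0.000783). With all signals raised to background that fall was not called (log2 difference -0.80, adjusted p = 0.149). COR27 and AT4G33980 rose (log2 differences 1.31 and 1.22, adjusted p = 0.00291 and 0.00856), as did AT5G53820, from 3.10 ± 3.03 at background on 2 of 3 arrays to 18.8 ± 4.45, and the dehydrin gene AT1G54410, also called HIRD11, from 1435 ± 220 to 2234 ± 402 (adjusted p = 0.0173 and 0.0202). The call of AT5G53820 was lost without replicate 1 or 2 of the induced 6 h plants or replicate 1 of the induced 24 h plants (adjusted p = 0.0873, 0.0738 and 0.0591). That of HIRD11 was lost in 5 of 27 alternatives, with an adjusted p of 0.0524 to 0.119. These were 4 rises and 2 falls of 34, against 3.87% and 3.94% of all probe sets, with a median log2 difference of 0.19 against 0.02 over all.

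Between 6 h and 12 h with induction, 3 of 34 rose, against 0.827% of all probe sets, and no gene passed downward, against 1.07%, while 6 of 34 had an unadjusted p under 0.05 in either direction, against 14.6% of all. AT4G21020 reached 91.4 ± 4.70 from 12.0 ± 9.09, AT2G23120 reached 941 ± 44.0 from 648 ± 15.9, and DI21, a drought-induced gene, reached 185 ± 27.2 from 122 ± 6.22 (adjusted p = 0.0424, 0.0374 and 0.036). This count moved with each of the 6 arrays compared. It was 0 without replicate 1 of the induced 6 h plants or replicates 2 or 3 of the induced 12 h plants, and 1 without replicates 2 or 3 of the induced 6 h plants or replicate 1 of the induced 12 h plants. Without replicate 3 of the induced 6 h plants all 3 rises named here lost their calls (limma adjusted p = 0.0526 to 0.0663), so the 1 gene passing there was another.

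The next comparison set induced against other plants at the same time. At 6 h 1 gene of 34 passed, LEA27 (AT2G46140), which was lower in induced plants by a log2 difference of -0.66 ± 0.15 (adjusted p = 0.0444), against 0.396% of all probe sets that were lower and 0.572% that were higher. The call was lost in 17 of 27 alternatives, with an adjusted p of up to 0.224 (only the arrays compared). The other 33 did not pass, COR15B with 872 ± 164 against 735 ± 98.7 and LTI30 with 898 ± 12.8 against 1226 ± 619.

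At 12 h, 6 of 34 were higher in induced plants and 1 was lower, against 2.91% and 1.93% of all probe sets, with a median log2 difference of 0.46 against 0.04 over all. COR15B stood at 913 ± 92.4 against 290 ± 161, a 3.61-fold difference (log2 difference 1.85 ± 0.32, adjusted p = 0.00107), with every induced array at 817 or more and every other at 428 or less. AT2G23120 stood at 941 ± 44.0 against 570 ± 22.6 (log2 difference 0.72 ± 0.13, adjusted p = 0.00166). AT4G36600 stood at 33.1 ± 5.65 against 5.72 ± 4.27, with 1 of those 3 arrays at background (adjusted p = 0.00107). AT4G21020 was at least 16.3-fold and AT1G72100 at least 2.75-fold above plants without induction, where both were at background on all 3 arrays. DI21 was higher by 0.52 ± 0.14 (adjusted p = 0.04), a call lost in 9 of 27 alternatives. AT1G54890 was the 1 lower gene, at 9.11 ± 4.76 against 57.0 ± 15.9 (adjusted p = 0.0129), a call lost in 3 of 26 alternatives (adjusted p = 0.0529 to 0.0871). The call of AT1G72100 was lost without replicate 3 of the plants without induction (adjusted p = 0.0505).

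**Figure D3:**
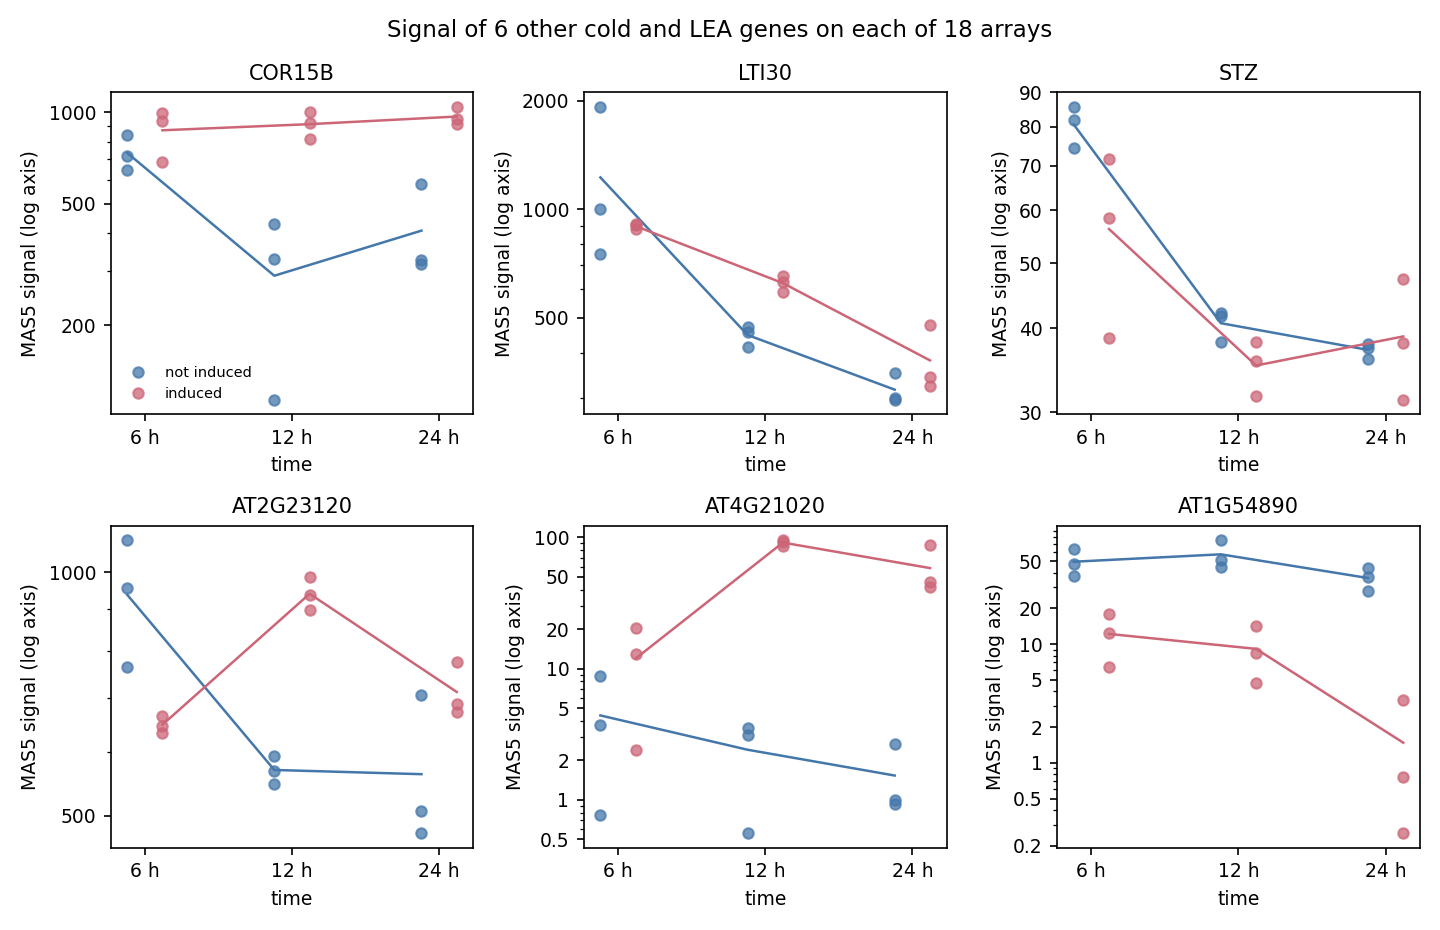
MAS5 signal (log axis) of COR15B, LTI30, STZ, AT2G23120, AT4G21020 and AT1G54890 on each of the 18 arrays, by time (equally spaced) and induction; points are arrays and lines join the means of 3 arrays. COR15B stays near its 6 h level in induced plants (872, 913 and 967), LTI30 is lower at each later time in both, and AT4G21020 and AT1G54890 part in opposite directions.

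At 24 h, 5 of 34 were higher in induced plants and 2 lower, against 4.43% and 3.90% of all probe sets, with a median log2 difference of 0.36 against 0.02 over all. COR15B stood at 967 ± 67.5 against 408 ± 149, a 2.46-fold difference (log2 difference 1.30 ± 0.32, adjusted p = 0.012), a call lost without replicate 2 or replicate 3 of the plants without induction (adjusted p = 0.0633 and 0.0705). AT4G36600 stood at 42.5 ± 5.42 against 7.35 ± 1.68 (adjusted p = 0.00282) and AT4G21020 was at least 12.6-fold higher. AT1G72100 had 16.8 ± 3.62 against 3.90 ± 6.06, with 2 of 3 arrays without induction at background (adjusted p = 0.0152). That call was lost in 4 of 26 alternatives, among them the fits without replicate 1 or 3 of the plants without induction or replicate 2 of the induced plants (adjusted p = 0.0758, 0.105 and 0.0628). HIRD11 (AT1G54410) was higher by 0.55 ± 0.17 (adjusted p = 0.044), a call lost in 15 of 27 alternatives. AT1G54890 was at least 5.50-fold lower, and LEA27 stood at 69.8 ± 9.21 against 123 ± 1.88 (adjusted p = 0.00142). LTI30, most like COR47 over the arrays, was 381 ± 83.2 against 316 ± 30.5 and did not pass (log2 difference 0.25 ± 0.21, adjusted p = 0.571). STZ, at 38.9 ± 8.04 against 37.1 ± 0.97, did not pass either (adjusted p = 0.938). The count at 24 h was 4 without replicate 3 of the plants without induction.

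Whether the change with time differed between induced and other plants was tested directly for the 34 genes. AT2G23120 passed for both intervals, with the induced change more positive by 1.24 ± 0.18 from 6 h to 12 h and by 0.88 ± 0.18 from 6 h to 24 h (adjusted p = 0.00606 and 0.0186). Without induction its signal was 956, 1096 and 764 at 6 h, 548, 568 and 593 at 12 h, and 706, 476 and 507 at 24 h. With induction it was 646, 634 and 665 at 6 h, 987, 938 and 899 at 12 h, and 688, 775 and 671 at 24 h. Every induced array of 6 h lay below every other array of 6 h, and this lower start enters both differences. The 1 gene of 34 in each interval compares with 0.149% and 0.875% of all probe sets with a more positive change. COR15B had a difference of 1.61 ± 0.45 and 1.06 ± 0.45, which did not pass (adjusted p = 0.148 and 0.275), and LTI30 one of 0.81 ± 0.30 and 0.58 ± 0.30 (adjusted p = 0.313 and 0.403). For the interval to 24 h the call of AT2G23120 was lost in 6 of 27 alternatives, among them the fit with the hybridisation controls as a covariate (adjusted p = 0.18) and those without replicate 2 or 3 of the 24 h plants without induction (0.0609 and 0.0644).

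Within the LEA and dehydrin list, which held the 4 genes and 31 others, 13 of 35 measured genes were above background on all 18 arrays, 4 were at background on all, and 18 on some. The 4 genes belong to the part with measurable levels, and LEA4-5 had 1 array at background.

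**Figure D4:**
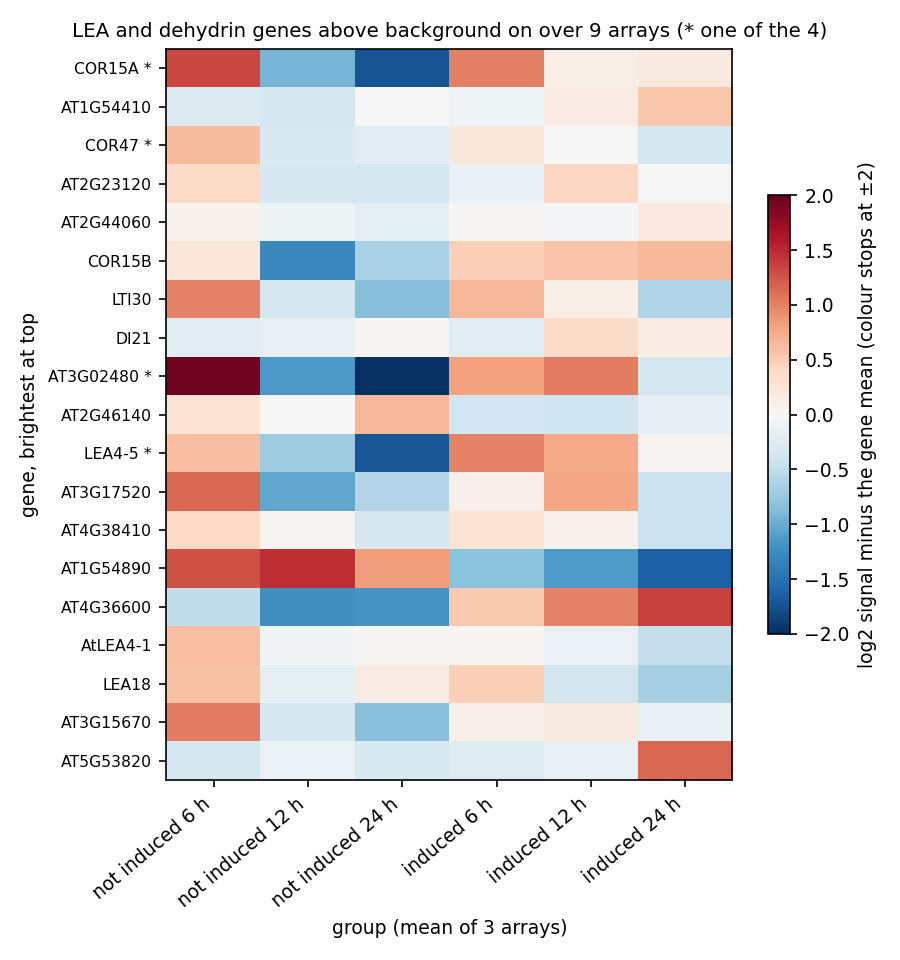
Log2 group means (3 arrays, signals raised to background) minus the mean of the 6 groups for the 19 LEA and dehydrin genes at background on fewer than 9 arrays, brightest at top; colours stop at 2 in either direction and asterisks mark the 4 genes. The columns of 12 h and 24 h without induction are lowest for COR15A, LEA4-5 and AT3G02480, while AT1G54890 is lower in the 3 induced columns.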

How the data were processed

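The authors deposited 1 linear intensity per probe set and array, computed with MAS5 in GCOS per the submitters' processing notes. No source used here states versions or the scaling target. Of 22810 probe sets, 64 controls were left out. Gene names came from the platform annotation, updated through RefSeq gene IDs. Probe sets with several genes (503) or none named (8730) were not assigned a gene. The fit on the log2 scale used limma 3.58.1 under R 4.3.3, with 1 mean per group over 18 arrays with an intensity trend, and 12 residual degrees of freedom. The Benjamini-Hochberg adjustment ran over all tested probe sets in each comparison, at a threshold of 0.05. The fit was tested on simulated data. Figures used Python 3.11.15 and matplotlib 3.10.9.

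Nothing in the labels gives separate cultures for replicates. The p-values thus reflect only variation among these samples, possibly technical. Where a group was at background on all 3 arrays, the fold is a lower bound taken against the background level.

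The members and lists were chosen with earlier results of these data known. Up to 6 genes per list with the smallest adjusted p were to be named, and the 5 probe sets most correlated with each member. DI21, AT5G53820, AT1G72100, AT3G15670, AT3G17520, HIRD11 and LEA27 were named after their values were seen. Alternatives covered normalization, filtering, offset, background, variance model, replicate block, hybridisation controls and each array left out. Promoter motifs were not searched, as sequences were not used here. Arrays with the same replicate number did not deviate together (r from -0.17 to 0.18 between groups compared, over the brighter probe sets), so the number was not taken as a pairing.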

Additional observations from a re-analysis of the deposited data

Results flagged for a closer look

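AT2G23120 of the LEA list stood out because its change with time differed between induced and other plants by a direct test. The induced change was more positive by 1.24 on the log2 scale from 6 h to 12 h (limma adjusted p = 0.00606) and by 0.88 from 6 h to 24 h (adjusted p = 0.0186). On all 3 induced arrays the 12 h signal was above that of all 3 induced arrays of 6 h, and on all 3 arrays without induction it was below that of all 3 at 6 h. Already at 6 h the induced arrays, at 634 to 665, lay below the others, at 764 to 1096. This lower start enters both differences. For the interval to 24 h the call was lost in 6 of 27 alternatives.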

How the results depend on the processing

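Over 27 alternatives, 18 of which left out 1 array each, 882 of 1014 repeats of the 38 calls among the 34 list genes stayed past the threshold, 132 did not, and 0 turned direction. Of the 38 calls 16 held in every alternative that kept their probe set. The cause was not tested for the changes below. From 6 h to 12 h without induction the count of 5 became 3 without an intensity trend, 3 with hybridisation controls as a covariate and 3 with only the arrays compared. From 6 h to 12 h with induction the count of 3 became 1 with 1 median for all arrays and 0 without a trend. For induced against other plants at 6 h the count of 1 became 2 with 1 median, 2 with probe sets above the 40th percentile, 2 with 16 added before the log, 3 with signals raised to background, and 0 without a trend, with the replicate number as a block or with the covariate. At 12 h and 24 h the counts of 7 each became 4 with probe sets above the 40th percentile, which tests fewer genes. For the difference between time courses to 24 h the count of 1 became 3 with 16 added, 3 with signals raised, and 0 without a trend, with the covariate or with only the arrays compared. To 12 h the count of 1 became 2 with 16 added, 3 with signals raised and 0 without a trend. Leaving out 1 array gave counts of 4 to 6 and 4 to 7 without induction (12 h and 24 h against 6 h), 0 to 4 and 5 to 7 with induction, 0 to 2, 5 to 9 and 4 to 8 for induced against other plants at 6 h, 12 h and 24 h, and 0 to 2 and 1 to 2 for the differences to 24 h and 12 h. The difference to 24 h gave 0 without replicate 2 or 3 of the 24 h plants without induction, and 2 without replicate 3 of the 6 h or of the 12 h plants without induction. The difference to 12 h gave 2 without replicate 1 of the 6 h plants without induction. For induced against other plants at 6 h, 10 single arrays left out gave 0: any replicate of the induced 6 h plants, replicate 1 of the 6 h, 1 or 2 of the 12 h and 2 or 3 of the 24 h plants without induction, and replicate 2 of the induced 12 h and 3 of the induced 24 h plants. Leaving out replicate 2 of the induced 24 h plants gave 2.

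The replicate block changed the count at 6 h, above, and moved no other count by over 1.5 times.

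With 16 added before the log, the difference between 24 h and 6 h without induction was -1.36 for LEA4-5 and -3.36 for AT3G02480, and that between induced and other plants at 24 h was 0.91 for LEA4-5. Leaving out 1 array gave -4.76 to -3.40 for AT3G02480 between 24 h and 6 h without induction. With the covariate COR47 had -0.45 in that comparison and -0.44 between induced and other plants at 24 h. Of 864 repeats of the 32 differences of the 4 genes, 4 changed sign, all of differences under 0.4 on the log2 scale. Signals near background, as for LEA4-5, limit what a fold can show.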
